A study of Saccharomyces cerevisiae with 6 samples.

Results

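The retrograde response is the program through which yeast cells adjust nuclear transcription to the state of their mitochondria and to the supply of glutamate and glutamine. Its 6 genes described here are the targets *CIT2* and *DLD3* and the regulators *RTG1*, *RTG2*, *RTG3* and *MKS1*. They are the rows of the deposited count table with these gene names, 6 of 7126 genes, and all 6 were among the 6083 genes that passed the filter on low counts. The set was chosen by the measured *CIT2* level, which varied strongly between mutant colonies, with earlier results of these data known. The values of *CIT2* are therefore given as a description with no test, and the adjusted *p*-values of the other members are those of a fit over all genes and not independent evidence.

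RNA was sequenced from diploid (MATa/MATα) *Saccharomyces cerevisiae* of the filamentous Σ1278b background, in which both chromosomal copies of *KCS1*, the inositol polyphosphate kinase gene, are deleted. The wild-type group, 3 colonies of strain SSY128, carried *KCS1* on the low-copy centromeric plasmid pRS416, and the mutant group, 3 colonies of strain SSY146, carried *kcs1*-S537A,S646A on the same vector. Both groups were grown in low-nitrogen, glucose-containing medium for 18 to 20 h (20 h in the sample labels). The study set out to learn how loss of these Snf1-dependent phosphorylation sites affects transcript levels. Since each allele is represented by a single strain, the allele cannot be told apart from other differences between the strains.

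Rtg1 and Rtg3 are basic helix-loop-helix proteins that bind DNA together at a short element called the R-box. Rtg2 relieves them from inhibition by Mks1, which holds Rtg3 in the cytoplasm when the pathway is off. *CIT2* encodes the peroxisomal citrate synthase and *DLD3* a cytosolic enzyme that oxidises D-2-hydroxyglutarate or D-lactate, and both are standard reporters of the pathway, which feeds citrate and 2-oxoglutarate into glutamate synthesis.

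The promoters of both targets are shown because they carry the element through which the pathway is known to act on them. The sequences are from the R64 reference genome of strain S288C, written 5′ to 3′ along the gene, with each R-box match (GTCAC, or GTGAC where it lies on the opposite strand) in capitals. The strains of the study are of another background and their promoters were not sequenced here.
*CIT2*, chrIII:122499-122698, minus strand: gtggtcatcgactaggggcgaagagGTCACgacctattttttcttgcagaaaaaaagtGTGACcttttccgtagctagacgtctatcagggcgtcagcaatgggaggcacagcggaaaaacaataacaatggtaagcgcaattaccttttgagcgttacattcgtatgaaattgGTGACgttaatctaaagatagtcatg
*DLD3*, chrV:16135-16254, plus strand: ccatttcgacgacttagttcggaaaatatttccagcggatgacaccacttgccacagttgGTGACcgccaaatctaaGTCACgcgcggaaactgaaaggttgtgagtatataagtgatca

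In the 500 bases before the start codon, *CIT2* had 3 matches to the 5 letters, starting at -345, -312 and -196, and *DLD3* had 2, starting at -160 and -143. Both genes therefore held a close pair of boxes in opposite orientation. Of 6659 nuclear protein-coding genes with a full window, 42.9% held at least 1 match on either strand, 11.4% at least 2 and 2.30% at least 3. The first pair in *CIT2* lies inside the annotated open reading frame YCR006C (chromosome III, 122530 to 123003, minus strand). Among the regulators, *RTG3* had 2 matches, *RTG1* and *RTG2* 1 each and *MKS1* none. A list of 9 retrograde targets known from general knowledge (*CIT2*, *DLD3*, *CIT1*, *CIT3*, *ACO1*, *IDH1*, *IDH2*, *PYC1* and *PDH1*) had 7 genes with a match and 3 with at least 2. The sites of the other targets are shown with 10 bases on each side, turned so that every box reads GTCAC.
*CIT1*, box at -368: gctaaaaggcGTCACgtttttttcc
*ACO1*, box at -450: aatgacgccgGTCACacgcgggtgc
*IDH1*, box at -355: ggcgtcatagGTCACtcatcaacca
*IDH1*, box at -477: agtaacgtaaGTCACgtgctttcta
*PYC1*, box at -488: gagacacagcGTCACgtgttttgcc
*CIT3*, box at -225: accatggtgtGTCACttccccaatt
The boxes of *PYC1* and the farther box of *IDH1* run into gtg and so overlap the motif CACGTG, which other helix-loop-helix factors bind. *IDH2* and *PDH1* had no match in this window. These matches are a description of letters in the reference, and binding was not measured.

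**Figure D1:**
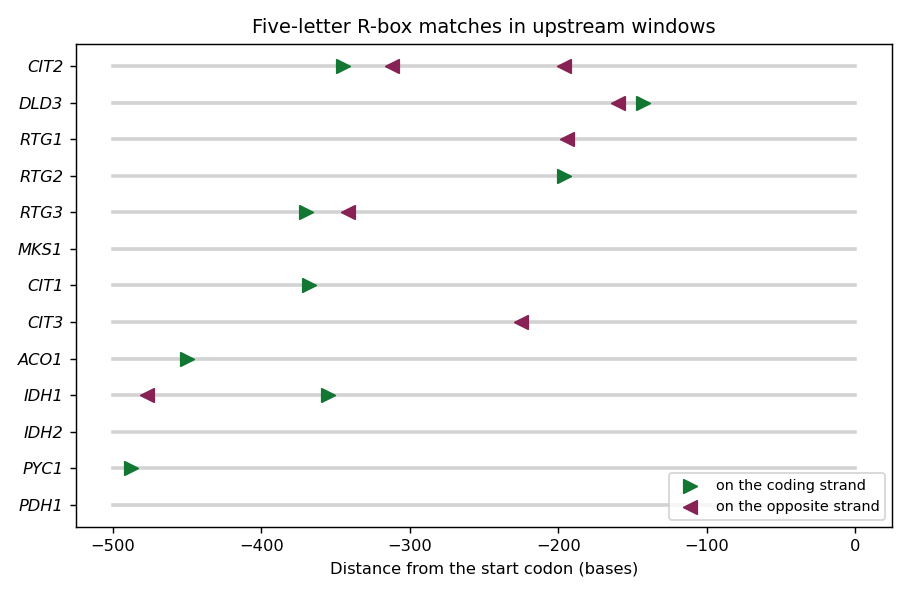
Position of R-box matches in the 500 bases before the start codon of the 6 retrograde genes and the other listed targets. The x axis is the distance from the start codon in bases, right-pointing marks are matches on the coding strand and left-pointing marks on the opposite strand. *CIT2* has 3 matches, *DLD3*, *RTG3* and *IDH1* have 2 each, and *MKS1*, *IDH2* and *PDH1* have none.

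The deposited counts per gene summed to between 17950923 and 22701020 per sample. *KCS1* itself, supplied by the plasmid, had 309.1 to 366.7 CPM (counts scaled to library size, with TMM factors) in wild type and 272.2, 796.7 and 347.4 CPM in mutant replicates 1, 2 and 3. The alanine codons cannot be seen in counts per gene. The strains were compared by the quasi-likelihood test of edgeR, with *p*-values adjusted by Benjamini-Hochberg over 6083 genes and a threshold of 0.05. This called 344 genes (5.66%), of which 60 (0.986%) were higher and 284 (4.67%) lower in the mutant. At an unadjusted *p*-value under 0.05 there were 1224 genes (20.1%), 501 (8.24%) higher and 723 (11.9%) lower. The count was 96, 84 and 122 without wild-type replicate 1, 2 or 3, and 16 of 5544 once chromosomes XIV and VI were removed. Without mutant replicate 1, edgeR called 423 of 6110 genes, 94 higher and 329 lower. DESeq2 called more genes than edgeR with all samples, 588 of 6083, with 165 higher and 423 lower. Chromosome XIV was lower as a whole in all 3 mutant samples, with a median log2 difference from the wild-type mean of -0.54 to -0.52, and in mutant replicate 1 chromosome VI had a median of -0.95. *MKS1* lies on chromosome XIV, and its values are given beside these medians. In bulk RNA, fewer cells of a kind and less RNA per cell cannot be told apart. The 10 haploid-specific genes listed to check the diploid label had 2.46 to 57.6 CPM each, and their sum was 128.0 to 146.8 CPM in wild type and 151.6 to 169.3 CPM in the mutant. One of them, the mating G protein subunit gene *STE4*, rose in the mutant (log2 ratio 0.51, adjusted *p* = 0.028 from edgeR), a call lost in 6 of 14 alternative analyses, among them those without wild-type replicate 2 (adjusted *p* = 0.14), wild-type replicate 3 (0.11) or mutant replicate 3 (0.072).

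*CIT2* is listed as YCR005C (chromosome III, 120946 to 122328, minus strand). It had 221.4, 304.8 and 143.6 CPM in wild-type replicates 1, 2 and 3, and 2236, 513.1 and 503.8 CPM in mutant replicates 1, 2 and 3. All mutant samples lay above all wild-type samples, and mutant replicate 1 stood 4.36-fold above the next highest sample. Relative to the wild-type mean, the mutant samples were at 10.01-fold, 2.30-fold and 2.26-fold. The fitted log2 ratio of mutant to wild type, 2.28 with a standard error (SE) of 0.60, was the second highest of the 6083 genes by size (rank 2), and it fell to 1.18 without mutant replicate 1. The wild-type colonies differed as well, by 2.12-fold between the highest and the lowest.

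*DLD3*, listed as YEL071W (chromosome V, 16355 to 17845, plus strand), was also highest in mutant replicate 1 and had the wild-type samples in the same order. Its levels were 246.2, 301.2 and 213.9 CPM in wild-type replicates 1, 2 and 3, and 1309, 443.2 and 463.7 CPM in mutant replicates 1, 2 and 3. The groups did not overlap, and the mutant samples were at 5.16-fold, 1.75-fold and 1.83-fold of the wild-type mean. The log2 ratio of 1.54 (SE 0.41) ranked 5 among all genes by size, but its adjusted *p*-value was 0.076 in edgeR and it did not pass the test. Without mutant replicate 1 it was smaller, 0.83, yet passed (adjusted *p* = 0.015 from edgeR), and without mutant replicate 2 it was 1.80 (adjusted *p* = 0.039). Over the alternative analyses the adjusted *p*-value ranged from 0.015 to 0.26.

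The spread between colonies is given as a description, since *CIT2* was chosen for it. The SD of log2 CPM over the 3 mutant samples was 1.23 for *CIT2*, rank 7 of 6083, and 0.88 for *DLD3*, rank 58, against a median of 0.16 over all genes tested. Among the 3 wild-type samples the SD was 0.54 for *CIT2* (rank 62) and 0.25 for *DLD3* (rank 490), against a median of 0.083. The regulators varied less between mutant colonies, with SDs of 0.33 for *RTG1*, 0.11 for *RTG2*, 0.057 for *RTG3* and 0.075 for *MKS1*. Among the wild-type samples *RTG1* had an SD of 0.33 (rank 262), above that of *DLD3*. *RTG2*, *RTG3* and *MKS1* had 0.063, 0.042 and 0.073 there.

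**Figure D2:**
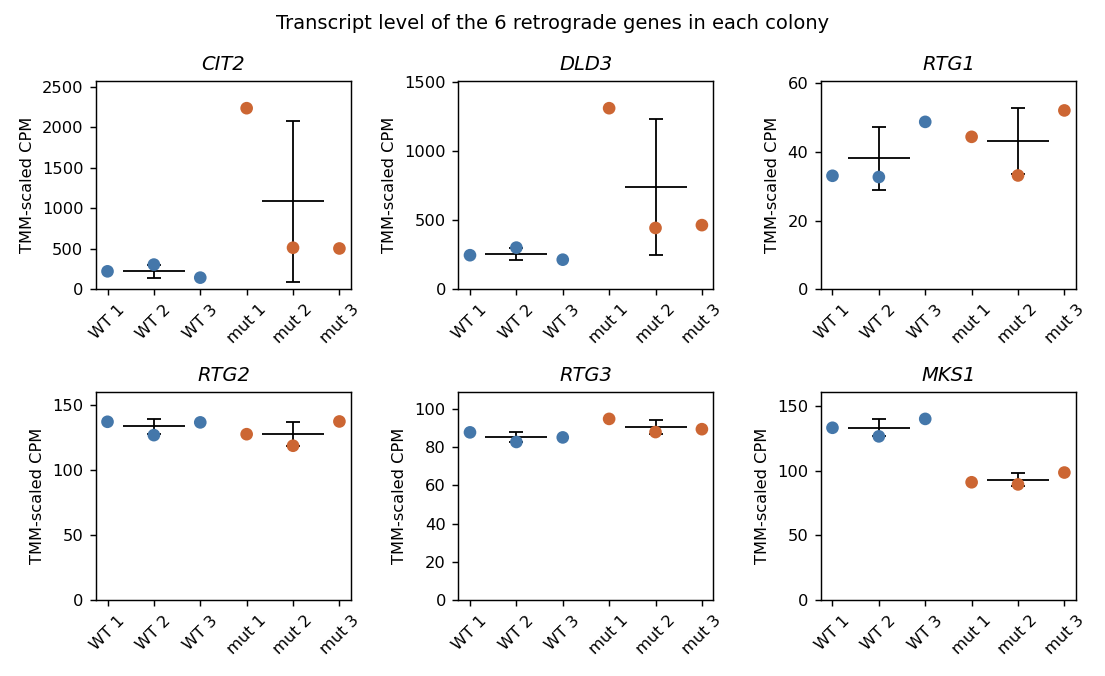
Transcript levels of the 6 genes in each colony, in TMM-scaled CPM on linear axes from 0. Blue points are the 3 wild-type and orange points the 3 mutant samples, and the black bar and whiskers give the mean and SD of each group (n = 3). Mutant replicate 1 stands at 2236 CPM for *CIT2* and 1309 CPM for *DLD3*, while *MKS1* is lower in all 3 mutant samples.

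**Figure D3:**
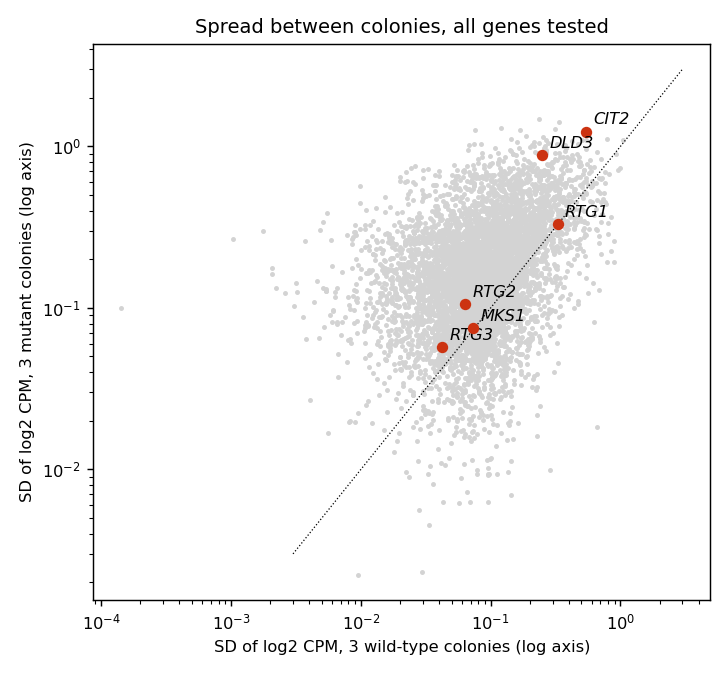
SD of log2 CPM among the 3 wild-type samples (x axis, logarithmic) and among the 3 mutant samples (y axis, logarithmic) for every gene tested (grey) and the 6 retrograde genes (red). The dotted line marks equal spread. *CIT2* and *DLD3* lie near the upper edge, at 1.23 and 0.88 on the y axis.

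The high level of *CIT2* and *DLD3* in mutant replicate 1 was not shared by their chromosomes. Chromosomes III and V had median differences of 0.021 and 0.028 (log2) in that sample, whereas *CIT2* and *DLD3* lay 3.39 and 2.38 above the mean of wild type. Of the 10 tested genes nearest to *CIT2*, the transfer RNA gene *SUF2* was the highest in that sample, at 2.49, and the median log2 ratio of the 10 between strains was 0.0012. YCR006C, the frame next to *CIT2* that holds its first pair of R-boxes, had a log2 ratio of 0.20 (adjusted *p* = 0.55 from edgeR). Since similar genes can share reads, the isozymes were aligned. In the reference, the coding sequence of *CIT2* shares 73.7% of aligned bases with *CIT1* and no identical run longer than 21 bases, and *DLD3* shares 65.2% with *DLD2* and no run longer than 20. None of the 6 genes overlaps another gene of the table.

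The regulators of the DNA-binding complex were near the same level in both strains. *RTG1* (YOL067C, chromosome XV, 201985 to 202518, minus strand) had 33.1, 32.7 and 48.8 CPM in wild type and 44.4, 33.2 and 52.1 CPM in the mutant. The ranges overlapped, with a log2 ratio of 0.18 (SE 0.20, adjusted *p* = 0.69 from edgeR). *RTG3* (YBL103C, chromosome II, 22076 to 23536, minus strand) had 87.7, 82.7 and 85.1 CPM in wild type and 94.8, 87.9 and 89.4 CPM in the mutant. All mutant values of *RTG3* were above all wild-type values, the nearest by a ratio of 1.00, and the log2 ratio was 0.090 (SE 0.070, adjusted *p* = 0.52 from edgeR). *RTG2* (YGL252C, chromosome VII, 25718 to 27484, minus strand), the activator upstream of this complex, had 137.3, 127.0 and 136.8 CPM in wild type and 127.7, 118.8 and 137.6 CPM in the mutant. The ranges of *RTG2* overlapped too, with a log2 ratio of -0.063 (SE 0.082, adjusted *p* = 0.73 from edgeR). In mutant replicate 1, where the targets were highest, the activator farthest from its wild-type mean was *RTG1*, at 0.24 (log2).

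*MKS1* (YNL076W, chromosome XIV, 483556 to 485310, plus strand), the inhibitor of the pathway, was lower in every mutant sample. Its levels were 133.5, 126.8 and 140.4 CPM in wild type and 91.2, 89.6 and 98.8 CPM in the mutant, with no overlap. The log2 ratio was -0.52 (SE 0.077, adjusted *p* = 0.0090 from edgeR). The 10 tested genes nearest to it had a median log2 ratio of -0.60, and after subtraction of the median of chromosome XIV the log2 ratio of *MKS1* was 0.0057. Without wild-type replicate 1 or 3 the call was lost, with adjusted *p*-values of 0.056 and 0.054 from edgeR and log2 ratios of -0.52 and -0.48. The 3 mutant samples were nearly equal in *MKS1* but not in *CIT2*. Whether the level of *MKS1* bears on that of *CIT2* was not tested. *MKS1* was the only called gene among the 5 tested members, where 5.66% of all genes were called. Leaving *CIT2* aside, groups did not overlap for *DLD3* and *RTG3*, higher in the mutant (11.8% of all genes), and for *MKS1*, lower in the mutant (14.8%). The share in either direction was 26.6% of all genes, and nothing is read from the members' count, as they were chosen with these results known.

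Levels of different genes were compared per kilobase of coding length. In wild type, *DLD3* had 170.2 ± 29.6 and *CIT2* 161.5 ± 58.3 CPM per kb (SD, n = 3), which did not differ beyond their spread. They were followed by *MKS1* at 76.1 ± 3.86, *RTG2* at 75.7 ± 3.29, *RTG1* at 71.5 ± 17.2 and *RTG3* at 58.3 ± 1.72 CPM per kb (SD, n = 3). *MKS1*, *RTG2* and *RTG1* did not differ beyond their spread, and *RTG3* was the lowest of the 4 in every wild-type sample, at 0.64 to 0.97 of *RTG1*. In the mutant, *CIT2* came first with 784.0 ± 721 and *DLD3* second with 495.4 ± 331 CPM per kb (SD, n = 3), and *MKS1* was last at 53.1 ± 2.80. The ratio of *RTG2* to *MKS1* per coding length was 0.97 to 1.02 in wild type and 1.32 to 1.39 in the mutant. In wild type *CIT2* stood at 0.58 to 0.97 of the level of *CIT1*, the mitochondrial citrate synthase gene, per coding length. In mutant replicates 1, 2 and 3 the ratio was 4.74, 2.22 and 2.69. *CIT1* and *MKS1* lie on chromosome XIV, which was lower as a whole in every mutant sample. The ratios to *CIT1* and to *MKS1* are not corrected for this. *DLD3* stood at 1.89 to 2.43 of the level of *DLD2*, a related mitochondrial dehydrogenase gene, in wild type and at 13.9, 4.21 and 4.23 in the mutant samples.

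The other retrograde targets except *CIT3* exceeded wild type in every mutant sample or in mutant replicate 1 alone. *PYC1*, encoding pyruvate carboxylase, had 508.2, 592.9 and 546.4 CPM in wild type and 955.7, 607.3 and 681.9 CPM in the mutant, with no overlap. *PDH1*, encoding a mitochondrial 2-methylcitrate dehydratase, had 38.4, 56.2 and 37.4 CPM in wild type and 206.7, 59.0 and 59.9 CPM in the mutant, also without overlap. The margin was small, as the lowest mutant value was 1.02-fold the highest wild-type value for *PYC1* and 1.05-fold for *PDH1*. The log2 ratios were 0.45 for *PYC1* (SE 0.17, adjusted *p* = 0.20 from edgeR) and 1.30 for *PDH1* (SE 0.48, adjusted *p* = 0.18), and neither passed the test.

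The early TCA cycle genes behaved otherwise in the mutant samples. *IDH2*, a subunit gene of NAD-dependent isocitrate dehydrogenase, had 347.1, 348.2 and 360.5 CPM in wild type and 657.3, 262.8 and 305.9 CPM in mutant replicates 1, 2 and 3. *CIT1* had 287.6, 328.1 and 259.4 CPM in wild type and 490.7, 240.3 and 194.9 CPM in the mutant. For both genes mutant replicate 1 lay above, and the other mutant samples below, all wild-type samples. The same arrangement was found for *ACO1*, the mitochondrial aconitase gene, with 1092 to 1149 CPM in wild type and 1228, 790.0 and 817.8 CPM in the mutant. It was also found for *IDH1*, the other isocitrate dehydrogenase subunit gene, with 792.8 to 859.7 CPM in wild type and 888.3, 381.8 and 509.0 CPM in the mutant. *CIT1* and *IDH1* lie on chromosome XIV. Relative to the chromosome median of each sample, *CIT1* was at 1.28, 0.27 and -0.045 and *IDH1* at 0.63, -0.57 and -0.17 (log2) in mutant replicates 1, 2 and 3.

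None of these 4 genes passed the test with all samples, with log2 ratios from -0.48 to 0.22 and adjusted *p*-values from 0.38 to 0.91 in edgeR. Without mutant replicate 1, *ACO1* at -0.47 (adjusted *p* = 0.016) and *IDH1* at -0.90 (adjusted *p* = 0.0099) were called lower in edgeR, and the values of *CIT1* and *IDH2* changed sign, to -0.43 and -0.31. The difference between mutant replicate 1 and the other mutant colonies has no replicate. *CIT3*, a minor mitochondrial citrate and methylcitrate synthase gene, had 9.84 to 17.9 CPM over all samples and a log2 ratio of 0.020.

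Mutant replicate 1 was thus the highest of the 6 samples for 7 of the 8 listed targets other than *CIT2*, *CIT3* being the exception, where 23.3% of all genes tested had their highest value in that sample. Of these 8 targets, edgeR called none with all samples, 3 were higher at an unadjusted *p*-value under 0.05 (8.24% of all genes), and DESeq2 and limma-voom called none. They had a median log2 ratio of 0.15 against 0.015 over all genes tested. Their medians were 0.78, -0.062 and -0.32 in mutant replicates 1, 2 and 3, against -0.0030, 0.0032 and 0.0099 over all genes. *DLD3*, known to be high when the list was written, is among them.

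**Figure D4:**
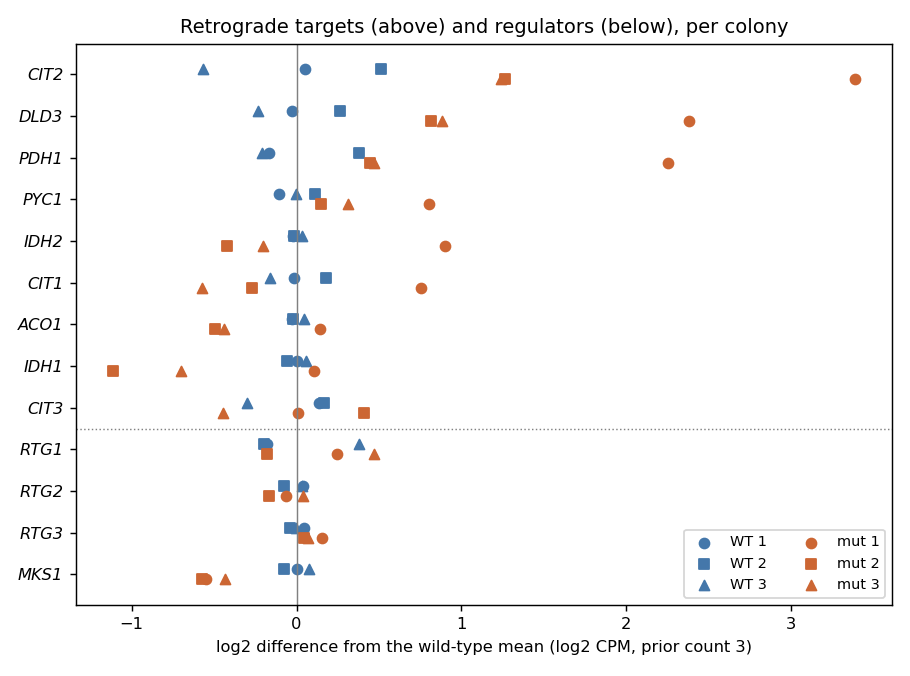
Difference of each sample from the wild-type mean in log2 CPM (x axis) for the 9 listed targets above the dotted line and the 4 regulators below it. Blue marks are wild-type and orange marks mutant samples, with a circle, square and triangle for replicates 1, 2 and 3. The circle of mutant replicate 1 lies farthest to the right for 8 targets, at 3.39 for *CIT2*, and *MKS1* lies left of 0 in all 3 mutant samples.

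The isozymes outside the pathway did not share this pattern. *DLD1*, the mitochondrial D-lactate dehydrogenase gene, had 172.7 to 178.1 CPM in wild type and 141.0 to 187.8 CPM in the mutant (log2 ratio -0.049, adjusted *p* = 0.85 from edgeR). *DLD2* had 120.6 to 134.6 CPM in wild type and 100.5 to 117.2 CPM in the mutant, with no overlap but no call (log2 ratio -0.23, adjusted *p* = 0.19). In the list of 10 genes for D-lactate and D-2-hydroxyglutarate metabolism, which contains the *DLD* genes and the D-2-hydroxyglutarate-producing *SER3* and *SER33*, edgeR called none. At an unadjusted *p*-value under 0.05, 1 was higher and 2 were lower (20.1% of all genes in either direction), DESeq2 and limma-voom called none, and without mutant replicate 1 edgeR called *DLD3*. The range of log2 ratios in the list was -0.35 to 1.54, with a median of -0.077.

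Between the strains, genes known to act on the pathway mostly differed little. Listed as modulators were the TORC1 components *LST8*, *TOR1*, *KOG1* and *TCO89* and the 14-3-3 genes *BMH1* and *BMH2*. The others were the amino acid sensor genes *SSY1*, *PTR3* and *SSY5*, and *GRR1*, *URE2*, *MSN5* and *HOG1*. Of these 13 genes, edgeR called 1 lower and none higher, where 4.67% and 0.986% of all genes were called. This was *URE2*, a regulator of nitrogen catabolite repression, with 161.0, 179.0 and 157.5 CPM in wild type and 119.3, 101.5 and 105.0 CPM in the mutant. Its log2 ratio was -0.61 (SE 0.093, adjusted *p* = 0.0092 from edgeR), and -0.086 relative to the median of chromosome XIV, where it lies. The call was lost without wild-type replicate 1 (adjusted *p* = 0.053) or 2 (adjusted *p* = 0.061). *LST8*, also on chromosome XIV, was called lower by DESeq2 only. Its log2 ratio was -0.31 (adjusted *p* = 0.085 from edgeR), but 0.21 relative to the median of that chromosome. *BMH2* had a log2 ratio of -0.28 (adjusted *p* = 0.25 from edgeR). The other 10 modulators ranged from -0.10 to 0.11, and the median of the list was 0.031. Mutant replicate 1 was the lowest sample for 6 of the 13 modulators and the highest for 1, against 24.0% and 23.3% of all genes. In these 6 genes it was at 0.66 (*PTR3*) to 0.95 (*BMH1*) of the wild-type mean. *PTR3* lies on chromosome VI, which was lower as a whole in that sample.

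Among the 5 genes whose induction by oleate needs the Rtg proteins, *POT1*, encoding peroxisomal 3-oxoacyl-CoA thiolase, fell in the mutant. It had 130.9, 141.5 and 144.2 CPM in wild type and 64.7, 78.3 and 82.1 CPM in the mutant, a log2 ratio of -0.89 (SE 0.10, adjusted *p* = 0.0041 from edgeR). *POT1* was the only gene of the 5 that edgeR called, where 4.67% of all genes were called lower. Mutant replicate 1, with the highest *CIT2*, had the lowest *POT1*, as it did for 24.0% of all genes. The other 4 genes, *POX1*, *FOX2*, *CTA1* and *PEX11*, had log2 ratios from -0.26 to 0.055 with no call, and without mutant replicate 1 edgeR called *POX1* and *FOX2* lower as well. Of the 9 genes other than *CIT2* that lead from citrate synthase to 2-oxoglutarate, edgeR called 1, where 5.66% of all genes were called. This was *IDP3*, which encodes the peroxisomal NADP-dependent isocitrate dehydrogenase and lies on chromosome XIV. It was lower in the mutant, with a log2 ratio of -0.62 (adjusted *p* = 0.014 from edgeR) and -0.096 relative to its chromosome. The *IDP3* call was lost without wild-type replicate 2 or 3 (adjusted *p* = 0.079 and 0.073). DESeq2 also called *IDP1* higher and *IDP2* lower.

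Glutamate is the end product that lowers activity of the pathway. The list of 8 genes for glutamate and glutamine covers synthesis, uptake and, with *GDH2*, the breakdown of glutamate. In this list edgeR called none, with 2 higher and 1 lower at an unadjusted *p*-value under 0.05 (8.24% and 11.9% of all genes). DESeq2 called *DIP5* and *GDH3* higher, and limma-voom none. Mutant replicate 1 was the highest sample for 6 of the 8 genes, against 23.3% of all genes. *GDH1*, encoding the main glutamate-forming dehydrogenase, had 1409 to 1748 CPM in wild type and 2912, 1348 and 1398 CPM in mutant replicates 1, 2 and 3, so only replicate 1 exceeded wild type. The largest log2 ratio of the list was that of *GDH2*, 0.81 (SE 0.40, adjusted *p* = 0.32 from edgeR). Its levels were 392.2, 496.4 and 502.4 CPM in wild type and 1272, 331.3 and 840.2 CPM in mutant replicates 1, 2 and 3.

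Loss of mitochondrial DNA is the classical trigger of the response, and rows of the mitochondrial genome were therefore examined. Their counts, from libraries selected for poly(A) RNA, summed to 7.18 to 18.1 CPM in wild type and to 8.83, 12.4 and 23.4 CPM in mutant replicates 1, 2 and 3. Mutant replicate 1 lay within the wild-type range, at 169 counts of 20529351. Without the ribosomal RNA rows it was instead the lowest of the 6 samples, at 1.72 CPM (33 counts), against 4.75, 3.12 and 2.47 CPM (87, 59 and 52 counts) in wild-type replicates 1, 2 and 3. Mutant replicates 2 and 3 had 3.64 and 5.08 CPM without these rows. Of the 8 mitochondrial protein genes listed, none passed the filter on low counts, so the level of mitochondrial transcripts could not be compared by gene at this depth. The part of mitochondrial DNA in the *CIT2* level was not tested. Among 7 nuclear genes for maintenance of mitochondrial DNA, edgeR called none, 1 was lower at an unadjusted *p*-value under 0.05 (11.9% of all genes), and DESeq2 and limma-voom called none. A separate mitochondria-to-nucleus route runs through Pdr3 to multidrug transporters. Of its 8 listed genes, edgeR and limma-voom called none, 3 were higher and 1 lower at an unadjusted *p*-value under 0.05 (8.24% and 11.9% of all genes), and DESeq2 called *PDR10* lower. Without mutant replicate 1, edgeR called *YOR1* higher and *PDR10* lower.

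The genes whose log2 CPM over the 6 samples was most like that of *CIT2* were sought among 400 genes with a mean log2 CPM of at least 3 and a range of at least 1. They were *DLD3* (Pearson's r 0.995), *DIP5* (0.990), *YAT2* (0.988), *YMC2* (0.987) and *LRG1* (0.985). For *DLD3* they were *YAT2* (0.996), *CIT2* (0.995), *LRG1* (0.994), *RUF5-1* (0.993) and *DIP5* (0.993). *DIP5* encodes a glutamate and aspartate permease, *YAT2* a carnitine acetyltransferase and *YMC2* a mitochondrial carrier. Each correlation includes mutant replicate 1, and the genes outside the members reached the range of 1 only through that sample. Without it the values with *CIT2* were 0.984 for *DLD3*, 0.965 for *DIP5*, 0.961 for *YAT2*, 0.948 for *YMC2* and 0.944 for *LRG1* over 5 samples. These values are no independent check, since the genes were picked with all 6 samples and the 5 still span both strains. *DIP5* had 483.8, 568.0 and 433.7 CPM in wild type and 1261, 622.4 and 706.9 CPM in the mutant. *YAT2* had 85.7, 86.8 and 79.0 CPM in wild type and 159.0, 101.7 and 106.4 CPM in the mutant. Mutant replicate 1 was the highest sample in both, a pattern by which they were picked. Of these neighbours, edgeR called none outside the members, with adjusted *p*-values from 0.063 to 0.13. *DLD3* was not called either (adjusted *p* = 0.076 from edgeR), and *CIT2* is given with no test.

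**Figure D5:**
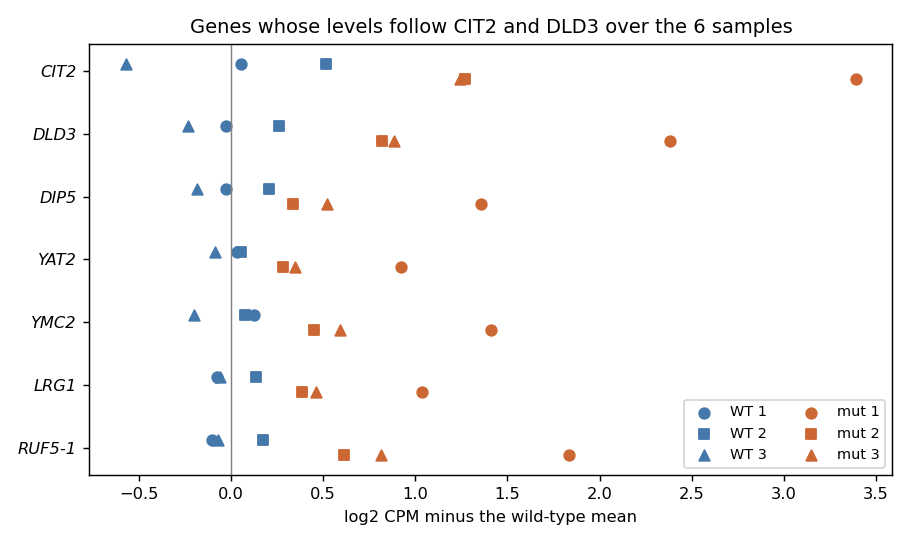
Log2 CPM minus the wild-type mean (x axis) in the 6 samples for *CIT2*, *DLD3* and the genes most like them. Blue marks are wild-type and orange marks mutant samples, with a circle, square and triangle for replicates 1, 2 and 3. In every gene shown, the circle of mutant replicate 1 is farthest to the right and the other mutant samples lie between it and wild type.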

How the data were processed

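Poly(A) RNA of 6 samples was sequenced as paired-end reads. The authors' sequencing company filtered reads, used hisat 2.0.5 for mapping and featureCounts 1.5.0-p3 for counting, and the raw counts were deposited with no scaling by the authors. The genome build and strand setting are not given in the sources used here. Of 7126 genes, 6048 matched the R64 annotation by identifier and 6036 had identical coordinates, as did all 6 members. The FPKM tables, the same counts scaled by length, were not used.

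Samples were grouped by their titles. In R 4.3.3, edgeR 4.0.16 kept genes by filterByExpr (minimum count 10), normalized by TMM and compared the strains with glmQLFTest, two-sided, with Benjamini-Hochberg adjustment over all 6083 genes tested. Standard errors (SE) of the log2 ratio were derived from the F statistic. Log2 CPM used a prior count of 3. Levels per kilobase used the deposited lengths, which are coding lengths. The procedure was tested on simulated counts. At these depths the members had 606 to 42815 counts per sample, and spread was taken from the colonies, not from counting error.

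The genes named are the 6 members, listed genes that passed the test or are isozymes or main targets, and the 5 genes most correlated with *CIT2* and with *DLD3*. *PDH1*, *GDH1*, *GDH2*, *LST8*, YCR006C and the genes called only by other analyses were named after their values were seen. Members and lists were chosen with earlier results of these data known. Alternatives were DESeq2 size factors, library totals, DESeq2 1.42.0, no filter, a filter of 10 counts in all samples, limma-voom (limma 3.58.1), a replicate block, each sample left out, and removal of chromosomes XIV and VI. List counts by other tools or without mutant replicate 1, and the mitochondrial sum without ribosomal RNA, were added after seeing the data. Samples are separate colonies, and no pair of them agreed within sampling noise. Upstream sequence was read from the R64 reference with Biopython 1.88.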

Additional observations from a re-analysis of the deposited data

How the results depend on the processing

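The number of called genes was 588 with DESeq2 and 16 with chromosomes XIV and VI removed, against 344 in edgeR, and ranged from 84 to 481 with 1 sample left out. With a sample left out, the log2 ratio ranged from 1.18 to 2.62 for *CIT2*, from 0.83 to 1.80 for *DLD3* and from -0.56 to -0.48 for *MKS1*. The lowest values of *CIT2* and *DLD3* were those without mutant replicate 1. *RTG1*, *RTG2* and *RTG3* kept their direction and were not called in any of the 14 alternatives. The values of *CIT1* and *CIT3*, close to 0, changed sign: to -0.00088 and -0.035 with library totals, to -0.035 and -0.0055 with the replicate block, *CIT1* to -0.016 with limma-voom and *CIT3* to -0.00038 without chromosomes XIV and VI. Leaving out samples gave -0.43 to 0.32 for *CIT1*, -0.22 to 0.21 for *CIT3*, -0.31 to 0.45 for *IDH2* and -0.13 to 0.070 for *DLD1*. The cause was not tested.

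Deviations of samples with the same replicate number had correlations of -0.14, 0.025 and 0.35 for numbers 1, 2 and 3. Pairs with unlike numbers ran from -0.26 to 0.26, so the pair of number 3 was the highest. Whether samples with the same number share more than a number was not tested. With the replicate block, edgeR called 282 genes. Depth limits the mitochondrial rows, where the log2 ratio of the summed level was 0.16 and -0.33 to 0.44 with a sample left out.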
